A study of Mus musculus with 9 samples.

Results

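Bone marrow-derived macrophages of the Ndufa4l3-miR147 knockout were compared with wild-type macrophages. The comparison held 6 of the 9 libraries of the series, 3 per genotype, and its members were the 10946 genes, of 29763 named entries, that reached 1 TPM or more in 3 or more of those 6 libraries. TPM is a length-normalised share of all transcripts in a library. The macrophages were grown from mouse marrow for 7 days in medium with 30% L929 supernatant, which supplies the growth factor M-CSF. Both genotypes then received interferon-gamma, a cytokine that activates macrophages, at 40 ng/ml for 12 h, so no library shows cells without it. The remaining 3 libraries came from Ndufa4 knockout macrophages treated alike. The labels call the 3 libraries of a genotype technical replicates, so the p-values measure only the spread between libraries. The number of mice behind them and the way the knockout was made are not stated in the labels.

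Complex IV, or cytochrome c oxidase, is the last enzyme of the mitochondrial respiratory chain, and the small protein NDUFA4 is one of its subunits. The gene knocked out here, also called Nmes1 and listed under the symbol AA467197, encodes a related small protein that takes the place of NDUFA4 in inflammatory macrophages. Its transcript also carries the microRNA miR-147, and a microRNA lowers target mRNAs by pairing its seed, near its 5′ end, with their 3′ untranslated regions. The title of the series links such remodelling of complex IV to interferon signalling in macrophages of tumours.

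The 5p arm of the microRNA removed with the gene is shown first (RefSeq, GRCm38.p6). The search for seed matches below rests on its seed alone (bases 2 to 8, in capitals). The 5p arm, the only one used in that search, lies on the plus strand at chr2:122640814-122640837, in the last exon of the gene; the other arm is mmu-miR-147-3p.
mmu-miR-147-5p: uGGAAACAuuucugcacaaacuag

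The targeted transcript was almost gone in the knockout. AA467197 (ENSMUSG00000033213.16; GRCm38 chr2:122636986-122641191, plus strand) stood at 365, 358 and 355 TPM in the wild-type libraries and at 2.90, 2.21 and 4.50 TPM in the knockout libraries. The knockout mean was 0.892% of the wild-type mean, a difference of -6.46 ± 0.17 (estimate ± SE) on the log2(TPM + 1) scale (limma, adjusted p = 1.5e-05). All differences below are knockout minus wild type on that scale, with n = 3 libraries per genotype. Ndufa4 itself did not pass the filter: it was listed at 0 in 4 of the 6 libraries, with 0.303 TPM in wild-type library 2 and 0.621 TPM in knockout library 2, so its level could not be compared. NDUFA4 is a widely expressed subunit, and whether these values reflect the cells or the abundance estimate was not tested. The third relative, Ndufa4l2, was not called (0.22 ± 0.80, limma adjusted p = 0.92), with 0.239 TPM in wild-type library 1 and 2.80 to 10.8 TPM in the others.

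Across the genome, 306 genes were called at a limma adjusted p under 0.05, or 2.80% of the genes tested. Of these, 167 (1.53%) were higher and 139 (1.27%) lower in the knockout. On the log2(TPM + 1) scale 12 (0.110%) differed by at least 1, called 2-fold here. A gene can change 2-fold in TPM without reaching this. Hpgd, called lower, fell from 7.49 to 3.66 TPM in the means and is not among the 12. The changes were small, with a median size of 0.30 among called genes. The libraries of both genotypes did not overlap for any called gene, nor for 24.1% of all genes tested. Where such separation is given below for a called gene, it is a description and adds no support to the call. The plot of every gene against its abundance shows this narrow band with AA467197 far below it.

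**Figure D1:**
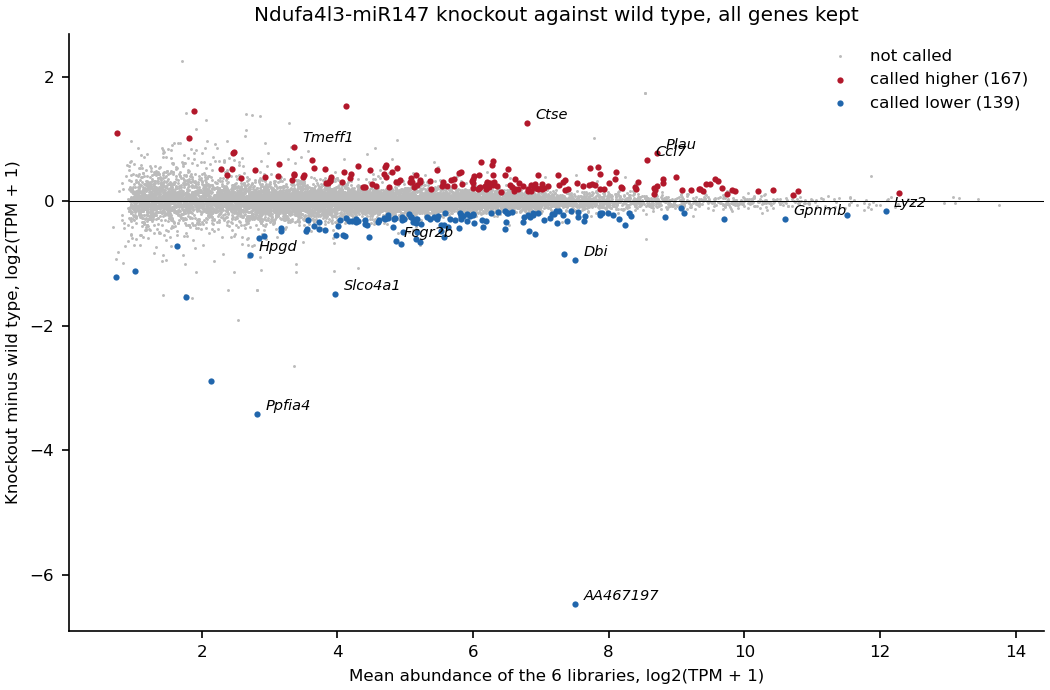
Difference between knockout and wild type on the log2(TPM + 1) scale (vertical) against the mean abundance of the 6 libraries (horizontal, log2 scale) for the 10946 genes kept; red and blue points are the 167 genes called higher and the 139 called lower. AA467197, at -6.46, lies apart from all other called genes.

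Wild-type library 1 stood apart from the other 5. Summed TPM of 10 neutrophil markers was 4.35 there and 39.4 to 83.2 in the others, with S100a9 at 0.955 against 18.0 to 37.3 TPM. Summed TPM of 8 stromal markers was 7.94 there and 37.8 to 46.2 in the others, with Col3a1, a fibrillar collagen, at 2.61 against 28.0 to 36.5 TPM. No neutrophil, stromal, erythroid, mast cell or T cell marker was called. On the other marker lists, Ighm (B cells) and Batf3 (conventional dendritic cells, -0.57, limma adjusted p = 0.048, called in 0 of the 6 fits without 1 library) were lower. The other 3 conventional dendritic cell markers kept lay above 0, not called, with Clec9a at 25.3, 27.7 and 27.1 TPM in wild type and 32.9, 29.0 and 28.2 TPM in the knockout. Bst2, on the plasmacytoid dendritic cell list and also interferon-stimulated, was higher. Siglech, Ccr9 and Klk1 of that list were under 1 TPM in all 6 libraries. Of 10 macrophage markers, 3 were called lower and none higher. The part of these cell types in the results was not tested beyond leaving this library out. Without this library 87 genes were called, 54 higher and 33 lower, and 85 of them were among the 306. The number of calls also moved with other libraries: it was 56 without wild-type library 2, 167 without wild-type library 3, and 315, 59 and 72 without knockout libraries 1, 2 and 3. Over these 6 fits 46 genes were called in each, and 31 in each of the 17 alternative fits.

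Besides the targeted gene, Ctse and Ppfia4 had the largest rise and fall among called genes with at least 5 TPM, unnamed gene models left out. Ctse, the aspartic protease cathepsin E, rose from 64.5, 64.4 and 65.6 TPM in wild type to 163, 152 and 152 TPM in the knockout, 240% of the wild-type mean (1.25 ± 0.04, limma adjusted p = 1.6e-05). Ppfia4, a liprin scaffold protein, fell from 10.4, 13.5 and 11.6 TPM to 0.290, 0.120 and 0.200 TPM (-3.41 ± 0.12, limma adjusted p = 4.2e-05). Dbi, the acyl-CoA-binding protein that carries long-chain acyl-CoA, fell from 252, 232 and 230 TPM to 127, 112 and 131 TPM (-0.94 ± 0.06, limma adjusted p = 0.00099). In each of these, every knockout library lay on one side of every wild-type library by far more than the spread within a genotype. All 3 were called in each of the 17 alternative fits, as were the rises and falls of the next 2 paragraphs unless a lower number is given.

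Among the other large rises, Plau, the urokinase plasminogen activator, went from 293, 318 and 321 TPM to 516, 538 and 532 TPM (0.77 ± 0.04, limma adjusted p = 0.00045). Steap3, a ferrireductase of the endosome, went from 59.6, 59.6 and 60.9 to 91.3, 96.2 and 96.1 TPM (0.65 ± 0.03, limma adjusted p = 0.00049). Tmeff1, Nanos1, Metrnl, Lipg and Angptl2 rose by 0.88, 0.57, 0.55, 0.53 and 0.52. Lipg is endothelial lipase and Metrnl and Angptl2 encode secreted proteins. Xlr, a member of an X-linked family whose copies can share reads, rose by 0.77 and was called in 13 alternatives.

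Among the other large falls, Fcgr2b, the inhibitory receptor for IgG, went from 33.4, 34.6 and 35.1 TPM to 20.6, 21.7 and 23 TPM (-0.64 ± 0.05, limma adjusted p = 0.0024). Ighm, the heavy chain of IgM, went from 43.3, 44.2 and 45.2 to 28.6, 27.2 and 27.8 TPM (-0.65 ± 0.04, limma adjusted p = 0.00076). Ighm was on the list of B cell markers, of which 7 of 10 were under 1 TPM in all 6 libraries, and the other member kept, Cd22, was not called (-0.15, limma adjusted p = 0.62). The summed TPM of that list was 45.9 to 48.3 in wild type and 29.9 to 31.9 in the knockout, nearly all of it Ighm. In bulk RNA, fewer cells of a type and less RNA per cell cannot be told apart. Apeh, an acylpeptide hydrolase, and Pla2g7, a lipoprotein-associated phospholipase, fell by 0.61 and 0.56. Slco4a1, an organic anion transporter, fell from 27.6, 20.7 and 17.9 to 9.18, 5.76 and 6.68 TPM (-1.49 ± 0.19, limma adjusted p = 0.012) but was called in 13 alternatives, with an adjusted p of 0.063 without knockout library 3.

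**Figure D2:**
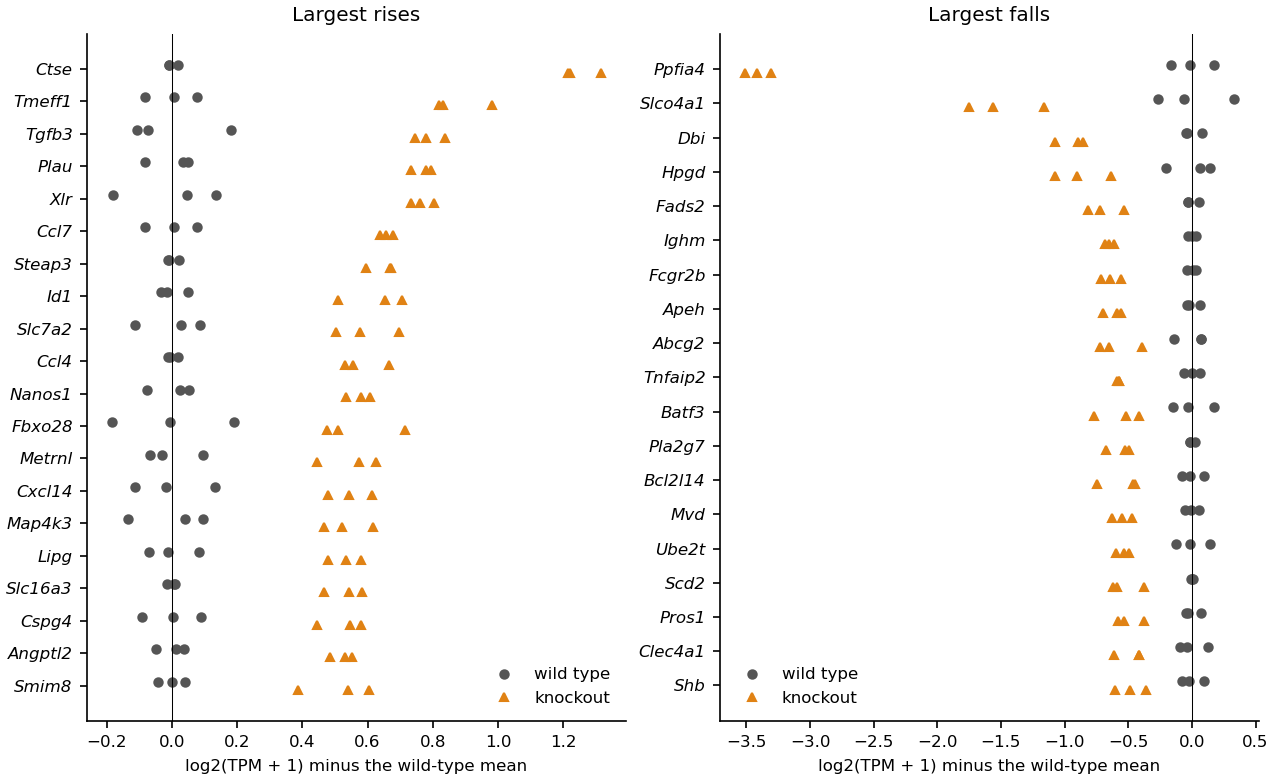
Values of single libraries for the 20 largest rises (left) and 19 of the 20 largest falls (right) among called genes with at least 5 TPM. Unnamed gene models were left out. Values are log2(TPM + 1) minus the wild-type mean of that gene. Circles are wild-type and triangles knockout libraries. Ctse leads the rises shown at 1.25 and Ppfia4 the falls at -3.41. Only genes whose groups did not overlap were eligible, so the gap between circles and triangles follows from the choice of genes.

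Of the 12 changes of at least 2-fold on the log2(TPM + 1) scale, 7 were falls. Besides AA467197, Ppfia4 and Slco4a1 these were Slc6a12, a betaine and GABA transporter (4.07 to 0.728 TPM in the means), Xlr3b, and the unnamed gene models Gm7332 and Gm26602. Gm7332 had 7.73, 3.58 and 8.96 TPM in wild type and was listed at 0 in every knockout library. The rises of this size were Ctse, Stmn2, which stayed at or below 1.30 TPM in both means, and the gene models Gm27038, Gm12439 and Gm13547. Gm27038 (8.08 to 24.8 TPM in the means) rose by 1.52, more than Ctse. The genes of this paragraph outside the naming rule (all but AA467197, Ctse, Ppfia4 and Slco4a1) were chosen after their values were seen, and the 12 became 5 without wild-type library 2 and 7 without wild-type library 1 or knockout library 2.

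Sterol synthesis genes were among the falls. Of 23 cholesterol synthesis and uptake genes kept, 9 fell (39.1%, against 1.27% of all genes), none rose, all 23 had a difference below 0, and the median was -0.30 (all genes, 0.00). The falls included Mvd, Fdps, Sqle, Cyp51 and Dhcr7, enzymes of the pathway, with Stard4, a sterol carrier, and Insig1, which retains the sterol sensor in the endoplasmic reticulum. Mvd went from 17.0, 18.4 and 17.6 to 11.1, 12.5 and 11.7 TPM (-0.55 ± 0.06, limma adjusted p = 0.0081). Fdps, farnesyl diphosphate synthase, went from 132, 133 and 126 to 103, 88.2 and 89.4 TPM (-0.48 ± 0.06, limma adjusted p = 0.012), but was called in only 2 of the 6 fits without 1 library, with an adjusted p of up to 0.062. For both, the knockout libraries all lay below the wild-type ones.

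The number of these calls depended on single libraries. Falls numbered 3 without wild-type library 1, 1 without wild-type library 2 and 4 without wild-type library 3. They numbered 11, 2 and 2 without knockout libraries 1, 2 and 3. The median stayed between -0.33 and -0.26 in the 17 alternatives. Mvd missed the threshold without wild-type library 2 (limma adjusted p = 0.0504).

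Genes of fatty acid synthesis and desaturation were also among the falls. Of 17 kept, 4 fell and 1 rose (against 1.27% and 1.53% of all genes), with a median of -0.25 and 16 of 17 below 0. Fads2, the delta-6 desaturase, fell from 38.4, 36.2 and 36.1 TPM to 25.1, 22 and 20.5 TPM (-0.69 ± 0.07, limma adjusted p = 0.0074). Scd2, a stearoyl-CoA desaturase, fell from 141, 141 and 142 to 109, 91.9 and 93.6 TPM (-0.53 ± 0.06, limma adjusted p = 0.0096). The knockout libraries were the lower ones throughout, with knockout library 1 nearest to wild type in both genes. Fads1 fell by 0.26 and Dbi, above, was on this list, while Acsl1, a long-chain acyl-CoA synthetase, rose by 0.20. Fads1 and Fads2 lie in the same 10 Mb of chromosome 19, and Dbi on chromosome 1, both in stretches with high shares of calls (below). The part of position in these falls was not tested. Without 1 library the falls numbered 2 to 5, with 3 without wild-type library 1 and the lowest, 2, without wild-type library 2; Scd2 then had a limma adjusted p of 0.051. Among 18 efflux and lipid storage genes, 27.8% were called, against 2.80% of all genes. Abcg1, a sterol exporter, Lpcat3, Pltp and Fabp5 fell by 0.17, 0.32, 0.19 and 0.29 and Lipg rose. Of these 4 falls, 1 remained in the count without wild-type library 1 and none without wild-type library 2 or knockout library 2.

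Glycolytic genes were among the rises. Of 23 kept, 7 rose (30.4%, against 1.53% of all genes) and 2 fell, with a median of 0.09. Slc16a3, the lactate exporter MCT4, rose most, from 169, 172 and 172 TPM to 237, 250 and 257 TPM (0.53 ± 0.04, limma adjusted p = 0.00099). Slc2a1, the glucose transporter GLUT1, rose from 55.3, 55.3 and 55.9 to 67.6, 70.2 and 71.1 TPM (0.32 ± 0.03, limma adjusted p = 0.0074). Ldha, lactate dehydrogenase A, was abundant and rose by 0.18, from 1286 ± 4.29 to 1458 ± 8.93 TPM (mean ± SD). The knockout libraries were higher than every wild-type library in all 3 genes. Pfkl, Pgk1, Pgam1 and Eno1, enzymes of the middle and lower pathway, rose by 0.31, 0.17, 0.18 and 0.17. The falls were Slc2a6 (-0.21), a lysosomal hexose transporter, and Aldoc (-0.32), a minor aldolase. Without wild-type library 1 the counts were 5 rises and no fall; rises ranged from 3, without wild-type library 2 or knockout library 2, to 7, without knockout library 1.

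Genes of the hypoxia response, which share some targets with glycolysis, showed 4 rises and no fall among 24 kept (16.7%, against 1.53% of all genes), with a median of 0.14. These were Slc2a1, Bnip3, a mitophagy receptor, and P4ha1 and P4ha2, subunits of the collagen prolyl hydroxylase. Bnip3 went from 44.2, 45.6 and 47.6 to 58.9, 66.9 and 63.6 TPM (0.45 ± 0.05, limma adjusted p = 0.01). P4ha1 and P4ha2 rose by 0.25 and 0.33. The transcript of the hypoxia factor itself, Hif1a, was not called (0.13, limma adjusted p = 0.23). Rises numbered 2 without wild-type library 1, 1 without wild-type library 2 or knockout library 3, 2 without knockout library 2, and 3 otherwise.

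**Figure D3:**
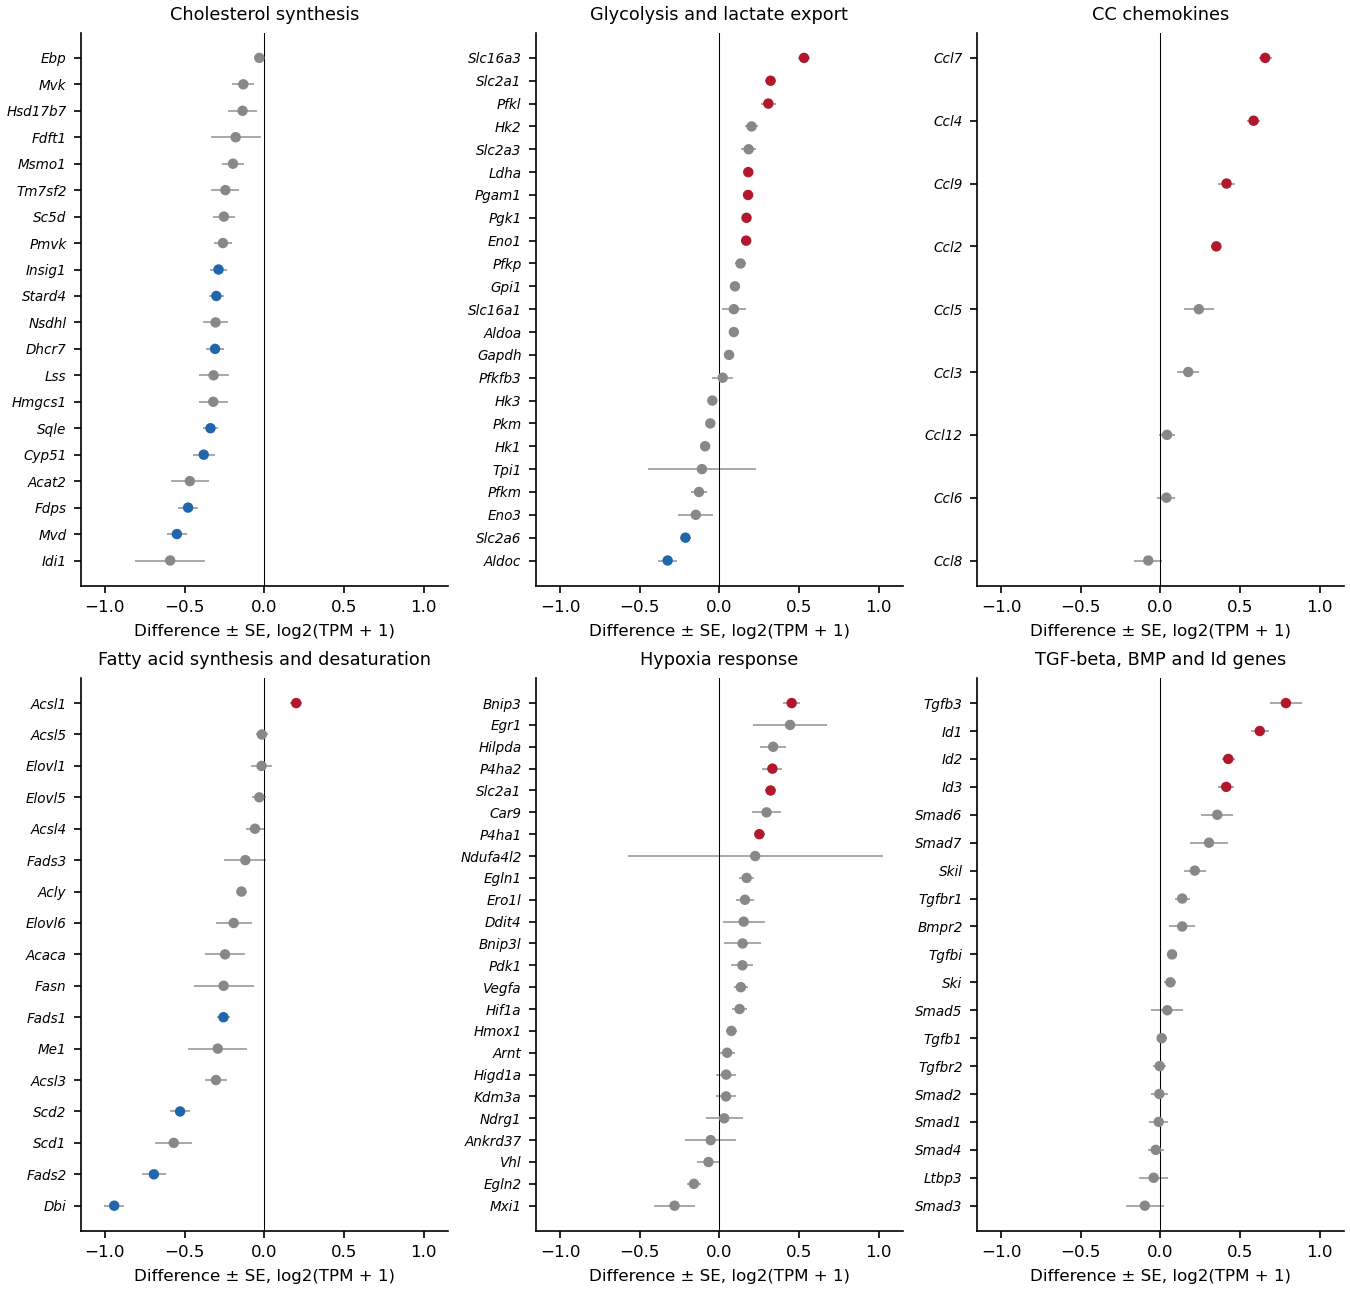
Difference ± SE on the log2(TPM + 1) scale for the members kept of 6 gene lists, ordered by difference; red and blue points are called higher and lower, grey points are not called. All 20 cholesterol synthesis genes shown lie left of 0, and 7 of 23 glycolysis genes are called to the right of it.

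As 10 genes of the glycolysis and hypoxia lists were called higher, the promoters of both lists (250 bases before to 50 after the start, RefSeq, GRCm38.p6) were searched for ACGTG, the core of the hypoxia response element, on both strands. It occurred in 25.7% of the 10452 promoters in the table of genes kept, in 18 of 34 promoters of the glycolysis list (52.9%) and in 15 of 26 of the hypoxia list (57.7%), which belong to 22 of 23 and 18 of 24 genes kept. Of the called genes alone, 6 of 13 glycolysis promoters (46.2%) had it, a lower share than over that whole list. That of Aldoc, which fell, was among them. All 4 of 4 called hypoxia promoters had it. A match is a description of the letters, not of a bound site, and its part in the rises was not tested. The 160 bases before the start are shown for 4 of the genes that rose, 2 from each list, whose windows touch no annotated exon; all 4 are on the plus strand, at chr7:46845644-46845803 (Ldha), chrX:106186940-106187099 (Pgk1), chr10:59323136-59323295 (P4ha1) and chr11:54100764-54100923 (P4ha2). Capitals mark ACGTG or its reverse complement CACGT.
Ldha: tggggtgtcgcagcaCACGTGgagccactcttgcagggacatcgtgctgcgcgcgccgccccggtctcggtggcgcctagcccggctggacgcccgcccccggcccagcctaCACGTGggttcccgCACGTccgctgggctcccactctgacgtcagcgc
Pgk1: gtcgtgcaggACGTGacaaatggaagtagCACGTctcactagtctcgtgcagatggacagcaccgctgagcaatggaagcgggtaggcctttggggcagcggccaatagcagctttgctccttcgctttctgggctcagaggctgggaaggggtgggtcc
P4ha1: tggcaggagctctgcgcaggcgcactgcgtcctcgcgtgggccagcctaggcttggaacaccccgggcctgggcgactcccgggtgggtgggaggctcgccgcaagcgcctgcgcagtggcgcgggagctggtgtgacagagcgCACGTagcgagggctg
P4ha2: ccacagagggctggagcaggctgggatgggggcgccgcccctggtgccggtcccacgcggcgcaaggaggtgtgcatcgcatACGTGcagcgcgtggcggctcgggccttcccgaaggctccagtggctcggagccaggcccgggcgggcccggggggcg
The element bound by the sterol-regulated factor SREBP, TCACNCCAC on either strand, occurred in 1.13% of promoters of genes kept and in 1 of 19 promoters of the cholesterol list (Hmgcs1), which belong to 16 of its 23 genes kept. Of the called genes, 4 had a promoter in the table, and 0 of their 6 promoters held it.

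Chemokines that recruit monocytes and other leukocytes were among the rises. Of 9 CC chemokines kept, 4 rose (44.4%, against 1.53% of all genes) and none fell, with a median of 0.24. Ccl7 went from 278, 295 and 310 TPM to 471, 458 and 464 TPM (0.66 ± 0.04, limma adjusted p = 0.00076). Ccl4 went from 60.8, 62.0 and 61.0 to 89.0, 97.8 and 90.6 TPM (0.58 ± 0.04, limma adjusted p = 0.0013). Ccl2 went from 643, 666 and 686 to 854, 863 and 828 TPM (0.35 ± 0.03, limma adjusted p = 0.003). For all 3 the genotypes were clearly separated, and the calls held when any 1 library was left out. Ccl9 rose by 0.41 (limma adjusted p = 0.011; 0.056 without wild-type library 2 and 0.052 without knockout library 2). Ccl3, Ccl5, Ccl6, Ccl8 and Ccl12 were not called. With 1 library left out the rises numbered 3 or 4, and 4 without wild-type library 1. Of 15 cytokine genes kept, Tnf and the antagonists Il1rn and Il18bp rose, by 0.30, 0.20 and 0.28, where 1.53% of all genes rose. Of these cytokine genes, 1 was called without wild-type library 1 and none without wild-type library 2 or knockout library 2 or 3.

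Extracellular and TGF-beta related genes contributed further rises. Of 15 proteases of this kind, Plau, Adam8 and Mmp13 rose and none fell, where 1.53% of all genes rose. Adam8, a membrane metalloprotease, went from 229, 234 and 232 to 315, 329 and 319 TPM (0.47 ± 0.03, limma adjusted p = 0.00062). Mmp13 rose by 0.47 (limma adjusted p = 0.015) but was not called without wild-type library 1 (0.051) or 2 (0.073). Of 19 TGF-beta, BMP and Id genes, 4 rose (21.1%, against 1.53% of all genes) and none fell. Id1, an inhibitor of helix-loop-helix factors and a target of BMP signalling, went from 52.4, 55.5 and 53.0 to 88.0, 84.9 and 76.8 TPM (0.62 ± 0.06, limma adjusted p = 0.0033). Its relatives Id2 and Id3 rose by 0.43 and 0.41. Tgfb3, the third TGF-beta ligand, rose from 2.80, 3.64 and 2.89 to 5.86, 6.02 and 6.31 TPM (0.79 ± 0.10, limma adjusted p = 0.013; 0.051 without wild-type library 1). Knockout values of these genes lay above all wild-type values. The receptors and SMAD transducers on the list were not called. Rises on this list numbered 2 without knockout library 3 and 3 or 4 without any of the others.

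Of the interferon-related lists, 4 held no call, on lists short enough that a share of 2.80% gives few. None of 15 interferon-gamma receptor and JAK-STAT genes was called, and the median of the list was -0.01. Ifnar2, a subunit of the type I interferon receptor, stood at 190, 191 and 196 TPM in wild type and 197, 206 and 199 TPM in the knockout (0.06 ± 0.03, limma adjusted p = 0.33). None of 9 guanylate-binding proteins was called, though all 9 differences were below 0 (median -0.10). The most abundant, Gbp2, had a difference of -0.14 ± 0.03 (limma adjusted p = 0.063). None of 7 immunity-related GTPases and none of 24 MHC class I and peptide-loading genes was called, with medians of -0.04 and 0.02. Of 14 MHC class II genes only Ciita, the class II transactivator, was called (-0.21 ± 0.04, limma adjusted p = 0.043), and it was called in none of the fits that left out a library. At an unadjusted p under 0.05, which 18.4% of all genes passed, limma gave 1 of the 15 receptor and JAK-STAT genes, 3 of the guanylate-binding proteins, 2 of the immunity-related GTPases and 6 of the class I genes.

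Type I interferon-stimulated genes showed 5 rises and no fall among 58 kept (8.62%, against 1.53% of all genes), with a median of 0.06 and 44 of 58 above 0. The rises were Oasl1 (0.40), Isg20 (0.36), Slfn1 (0.33), Oas1g (0.21) and Bst2 (0.16), all antiviral effectors or genes of such families. The number was 5 without wild-type library 3 or knockout library 1, 1 without wild-type library 1 or knockout library 3, and 0 without wild-type library 2 or knockout library 2. Irf7, the transcription factor that amplifies type I interferon, rose from 388, 402 and 405 to 473, 484 and 505 TPM (0.29 ± 0.03, limma adjusted p = 0.0076). Its call held when any 1 library was left out, the highest adjusted p being 0.047. The other 7 interferon regulatory factors kept were not called.

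No respiratory chain gene other than the targeted one was called. Of 19 complex IV subunits and their relatives kept, AA467197 was the only one called. None of 26 complex IV assembly factors, 35 nuclear complex I subunits, 30 nuclear subunits of complexes II, III and V or 13 mitochondrially encoded mRNAs was called. The medians of these 4 lists lay between -0.02 and 0.01. At an unadjusted p under 0.05, limma gave 3, 1, 4 and 1 of their members, against 18.4% of all genes. The mRNA of mt-Co1, the catalytic core of complex IV, stood at 8865, 8916 and 8953 TPM in wild type and 9120, 8675 and 8500 TPM in the knockout. Cox4i1, a nuclear-encoded subunit, stood at 1097 ± 37.9 and 1017 ± 42.8 TPM (mean ± SD; -0.11, limma adjusted p = 0.20). The integrated stress response can follow mitochondrial damage. Of its 19 genes kept, Atf3, Ddit3 and Slc3a2 rose by 0.26, 0.20 and 0.20 (15.8%, against 1.53% of all genes). None of these 3 was called without wild-type library 1 or 2 or knockout library 2 or 3.

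Surface receptors moved in both directions. Of 16 efferocytosis and scavenger receptor genes, 31.25% were called, against 2.80% of all genes. Cd36 and Msr1 rose by 0.26 and 0.29, and Mfge8, the bridge to dying cells, Mrc1 and Scarb1 fell by 0.48, 0.29 and 0.19. Cd36 went from 188, 187 and 194 to 234, 224 and 224 TPM, and Mfge8 from 52.7, 48.9 and 56.1 to 37.2, 36.8 and 38.4 TPM. The genotypes did not overlap in either gene, though Cd36 was not called without wild-type library 2 (limma adjusted p = 0.056), nor Mfge8 without knockout library 2 (0.0505). Of 7 Fc gamma receptor genes, Fcgr2b and Fcgrt fell (28.6%, against 1.27% of all genes) and none rose. Tgm2, transglutaminase 2, rose from 696, 697 and 693 to 873, 873 and 870 TPM (0.33 ± 0.02, limma adjusted p = 0.00062). Of 10 macrophage markers, all kept, 3 fell (30.0%, against 1.27% of all genes): Lyz2 by 0.16, Cd14 by 0.27 and Mrc1 by 0.29. Over the list 7 differences lay below 0 and 3 above. The 3 above, Cd68, Fcgr1 and Itgam, were not called. The genotypes did not overlap in these 3 (12.0% of all genes did so above 0). Nor did they in 5 of the 7 below 0 (12.1% of all genes). Cd68 stood at 2317, 2354 and 2348 TPM in wild type and 2462, 2486 and 2520 TPM in the knockout. The summed TPM of the 10 markers was 9277 to 9414 in wild type and 8858 to 9053 in the knockout. None of Lyz2, Cd14 and Mrc1 was called without wild-type library 1. Gpnmb, a lysosomal membrane glycoprotein, fell from 1702, 1693 and 1702 to 1394, 1362 and 1437 TPM (-0.28 ± 0.02, limma adjusted p = 0.003). Of 39 cell cycle genes, 10.3% were called, against 2.80% of all genes. Ccnd1, cyclin D1, rose by 0.36 and Aurkb, Ccnb2 and Ube2t fell by 0.30, 0.24 and 0.54. Without wild-type library 1 there was 1 call in each direction on this list.

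**Figure D4:**
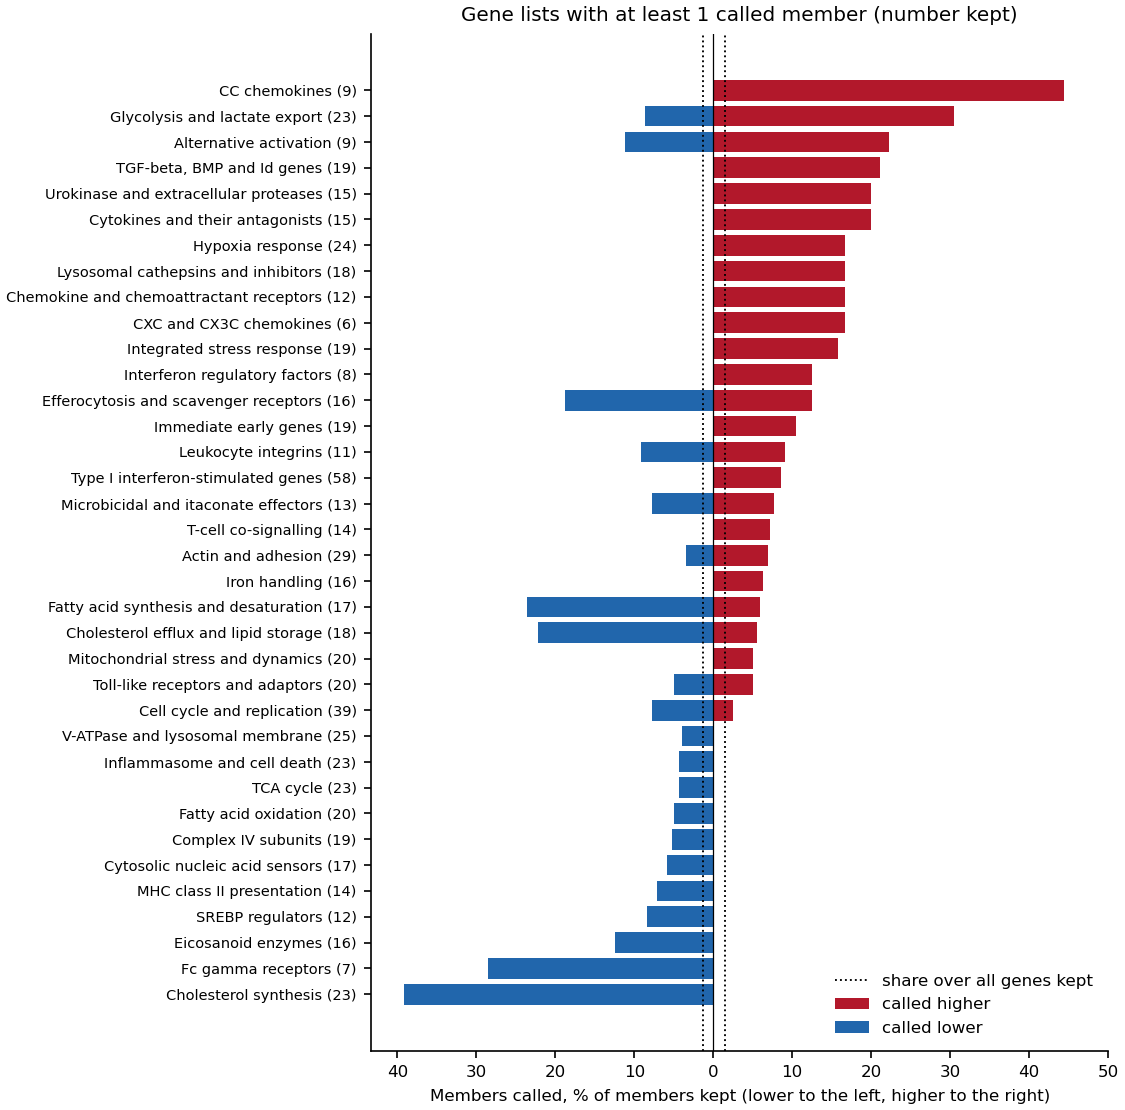
Share of the members kept (number in parentheses) that were called higher (red, to the right) or lower (blue, to the left), for each pathway list with at least 1 call; dotted lines mark the shares over all genes, 1.53% higher and 1.27% lower. CC chemokines have the longest bar to the right (44.4%) and cholesterol synthesis the longest to the left (39.1%).

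Calls were also counted among genes with a seed match to miR-147-5p. The seed of miR-147-3p was not searched, so the counts cannot speak for targets of that arm. A match to the 5p seed of 7 or 8 bases was found in the 3′ untranslated region of 2903 of the 10506 genes kept with an annotated one. Of these, 41 rose and 30 fell (2.45% called), against 122 rises and 106 falls (3.0%) among the 7603 genes without a match. Their median differences were both 0.00, and their 3′ untranslated regions had median lengths of 2472 and 1012 bases. The libraries hold polyadenylated RNA, so the mature microRNA was not measured.

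Called genes were unevenly placed along the genome. Within 10 Mb of AA467197, 2 of 166 other genes kept were called (1.20%). Both lie within 1 Mb of it, where they were 2 of 13 (15.4%). Gatm, a creatine synthesis enzyme, rose by 0.29 and Sord, sorbitol dehydrogenase, fell by 0.38. Neither was called without wild-type library 1. Around Ctse on chromosome 1, 10 of 66 genes within 5 Mb were called (15.2%). The count was 3 of 23 within 1 Mb (13.0%) and 11 of 75 within 10 Mb (14.7%). Among the 197 stretches of 10 Mb with at least 20 genes, whose median share was 2.22%, the highest 2 were neighbours on chromosome 1, at 120 to 130 Mb (4 of 21 called, 19.0%) and 130 to 140 Mb (10 of 61, 16.4%). The first holds Dbi, Steap3, Actr3 and Zranb3. The second holds Ctse, Ppfia4, Ube2t, Rnpep, Csrp1, Nav1, Kif21b, Srgap2, Mapkapk2 and 5430435G22Rik. The last of these lies beside Ctse and fell from 204, 205 and 215 to 115, 106 and 126 TPM (-0.85 ± 0.06, limma adjusted p = 0.0013). This protein-coding gene, listed under the symbol of an unnamed gene model, was picked with its values known. Of the 14 genes, 7 rose and 7 fell, and Ctse, Ppfia4, Dbi, Steap3, Csrp1 and 5430435G22Rik were called in every alternative fit. The window around Ctse was chosen because Ctse was known to change. The stretches of 10 Mb were ranked over all chromosomes, and the highest were picked by their share. Next in that ranking was chromosome 19 at 10 to 20 Mb (6 of 50 called, 12.0%), which holds Fads1 and Fads2. All these shares are a description with no test.

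**Figure D5:**
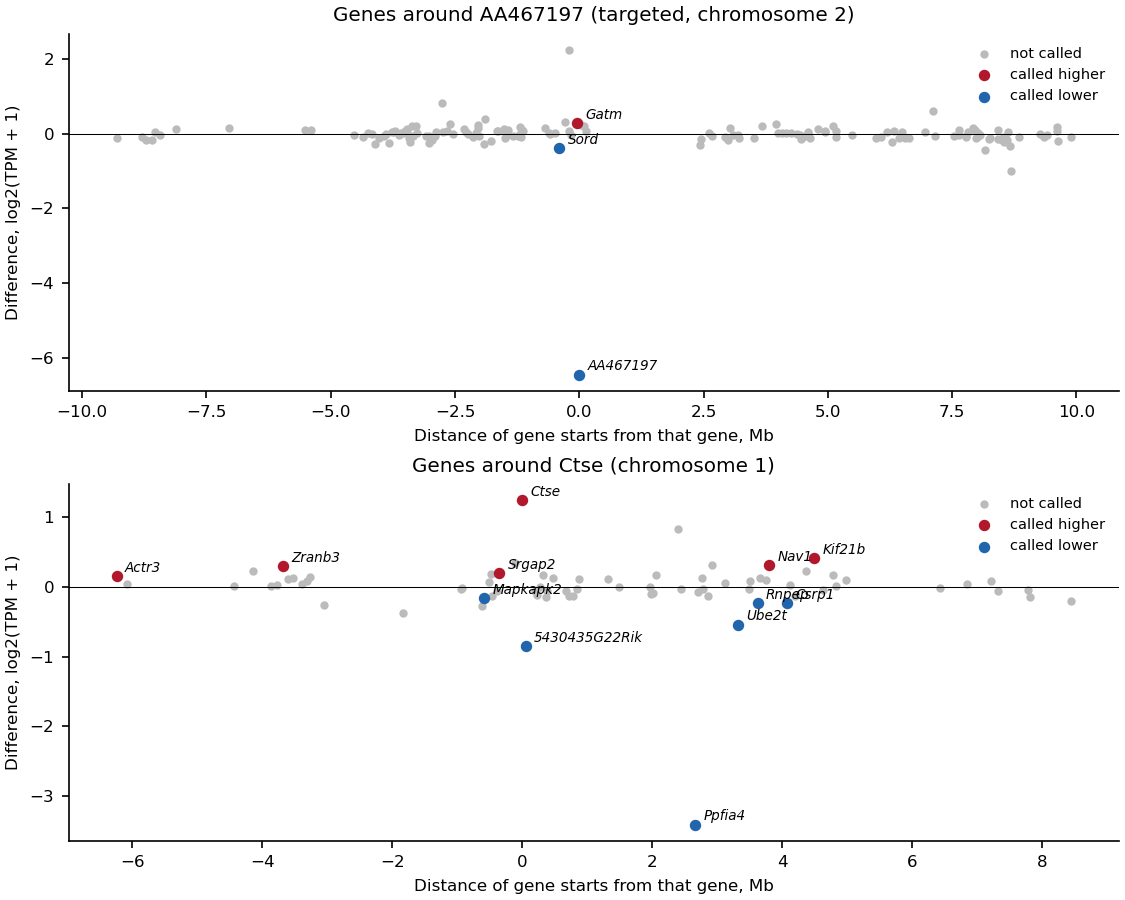
Difference on the log2(TPM + 1) scale against the distance of each gene's start from that of AA467197 on chromosome 2 (top) and of Ctse on chromosome 1 (bottom), within 10 Mb; red and blue points are called higher and lower. Besides AA467197 itself 2 called genes appear in the top panel, and 12 including Ctse in the bottom one; the grey point at 2.25 in the top panel is the gene model Gm14086, listed at 0 in wild type and not called.

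The Ndufa4 knockout libraries gave a second set of values for the same genes, here beside the others. For Ctse they were 8.22, 7.86 and 5.49 TPM, below wild type, where the Ndufa4l3-miR147 knockout was above it. Ppfia4 stood at 14.3, 14.9 and 14.5 TPM and Dbi at 208, 219 and 239 TPM, far above the Ndufa4l3-miR147 knockout in each library. Plau stood at 544, 484 and 481 TPM, within reach of the 516 to 538 TPM of the Ndufa4l3-miR147 knockout. Ighm stood at 31.2, 26.9 and 28.2 TPM and Slc16a3 at 236, 266 and 259 TPM, overlapping the Ndufa4l3-miR147 knockout as well. Fads2 was lower still, at 16.8, 15.5 and 14.6 TPM, and Irf7 was below wild type, at 305, 285 and 331 TPM.

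A direct limma test between the knockouts, with the spread estimated over all 9 libraries, was made over all genes and called 3.34% of them. The 40 largest rises and falls, unnamed gene models left out, were chosen for their size in the same Ndufa4l3-miR147 knockout libraries. Their share of calls is therefore not comparable with that of all genes. Of these 40, the test called 15. Among them were Ctse (4.27 ± 0.12 higher in the Ndufa4l3-miR147 knockout, limma adjusted p = 2.3e-07), Steap3 (1.29 ± 0.05 higher, limma adjusted p = 2.2e-06), Ppfia4 (-3.69 ± 0.11, limma adjusted p = 3e-07) and Dbi (-0.84 ± 0.07, limma adjusted p = 0.00091). Irf7 also differed (0.67 ± 0.06 higher, limma adjusted p = 0.00084). Plau, Ighm, Slc16a3 and Ccl7 were not called (0.07 ± 0.06, -0.04 ± 0.07, -0.03 ± 0.06 and 0.41 ± 0.09, limma adjusted p = 0.49, 0.76, 0.77 and 0.051), which does not show that the knockouts are alike in them. Without Ndufa4 knockout library 3, 23 of the 40 were called, and 6.78% of all genes.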

How the data were processed

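Values were taken as deposited: 1 table of TPM for 29763 named genes. The submitters' processing notes name kallisto, DESeq2 and edgeR, and mm10 and GRCm39 as builds. No source used here gives their versions, the role of each tool, the annotation or how transcripts were summed. TPM keep no read depth, so depth is unknown and counting intervals cannot be given. TPM in the table summed to between 913474 and 916828 in the 6 libraries, and each had between 10809 and 10959 genes with at least 1 TPM. The labels give RNA integrity numbers above 9.

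Groups came from the labels. Values were set to log2(TPM + 1), which understates changes of genes with low TPM. Genes that reached 1 TPM in 3 or more of the 6 libraries were fitted with limma 3.58.1 in R 4.3.3 (2 groups, intensity trend, two-sided tests, Benjamini-Hochberg adjustment over all 10946 genes), and called at an adjusted p under 0.05. The fit was tested on simulated data. The direct test between knockouts used all 9 libraries and was added after seeing the data.

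Coordinates and 3′ untranslated regions came from GENCODE M21 (GRCm38), joined by symbol (28046 matched, a further 870 by an older symbol, 847 not); the miRNA and promoters came from RefSeq (GRCm38.p6). Gene lists held 999 genes in 57 lists, 997 of which were found. Members and lists were chosen with earlier results of these data known. Named genes were AA467197, Ndufa4 and Ndufa4l2; the 20 largest rises and 20 largest falls among calls whose higher group averaged 5 TPM or more and whose groups did not overlap, without unnamed gene models; calls of that abundance within 10 Mb of AA467197 and of Ctse; and, per list, the called members with the smallest adjusted p (up to 5 each way), or, with none called, its 2 most abundant members. Other list members were named with their values known. Some genes of the lists are not reported here, nor shown in the plots. Values of near-identical paralogs are uncertain, since their reads can be shared.

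Alternatives were other pseudocounts (0.1, 5), filters, scalings and variance models, a removed length and GC trend, a replicate block, all 9 libraries, and each library left out in turn. Replicate numbers did not pair the samples (correlations of deviations -0.15, 0.07 and -0.04), so the block was not used.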

Additional observations from a re-analysis of the deposited data

How the results depend on the processing

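The 306 calls became 137 with no filter on low values, 141 with no intensity trend, 48 when all 9 libraries shared 1 spread estimate and 91 with a replicate block, and 56 to 315 with 1 library left out. Genes called higher, 167 at first, numbered 78, 76, 27 and 52 in those 4 fits and 33 to 150 with 1 library left out. Genes called lower, 139 at first, numbered 59, 65, 21 and 39, and 22 to 165. Calls of at least 2-fold, 12 at first, were 6 with a pseudocount of 5, 5 with a minimum of 5 TPM, 7 with all 9 libraries, 7 with the block and 5 to 16 with 1 library left out. The cause was not tested.

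Other pseudocounts, scalings, the stricter filter, robust variances and the length and GC correction gave 299 to 393 calls, with 284 to 305 of the 306 shared. The median of all genes moved by under 0.01 on the log2 scale in every alternative. Over 2631 pairs of a named gene and an alternative, 1957 kept their direction and side of the threshold, 670 lost the call, 4 gained one and none reversed. Replicate numbers do not mark shared cultures in the labels, and only library 2 of each genotype correlated best with its own number. The difference between genes with and without a seed match lay between -0.0015 and 0.009 in all alternatives. Without read counts, no depth limit could be set for genes with low TPM.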
